A study of Mus musculus with 36 samples.

Results

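Livers of C57BL6/J mice kept at 30 °C were compared 12 h and 0 h after an injection of lipopolysaccharide (LPS), the outer membrane glycolipid of Gram-negative bacteria, which triggers systemic inflammation. The comparison rests on 9 of the 36 RNA libraries of the series, 4 taken 12 h and 5 taken 0 h after the injection, and the libraries were assigned by the temperature and time in their titles. Both groups share the strain, the tissue and the ambient temperature, and differ in the hours since LPS. The LPS dose and the sex and age of the mice were not found in the sources used here, nor is it stated that each library came from a separate animal, so p-values reflect only how far these samples spread, which may be technical. The series holds no group without LPS at 12 h, so effects of the injection itself and of the time of day cannot be told apart from those of LPS. Further libraries served for the comparisons with 22 °C (4 at 0 h and 5 at 12 h) and with 4 h (4 libraries) and 24 h (5 libraries) at 30 °C. At 22 °C mice spend energy to keep warm, whereas 30 °C lies near the temperature at which they need not.

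Values are the authors' scaled reads per base, called signal below, from libraries that read the 3' ends of polyadenylated transcripts. The commonest value above 0 in a library was taken as the worth of 1 read. Depth was so estimated as 557000 to 830000 reads in the 0 h libraries and 934000 to 1100000 in the 12 h libraries. On this unit 3 reads were worth 3.45 to 5.05 and 2.48 to 2.95 units of signal. Only 16.7% to 17.6% of the values above 0 in these 9 libraries were whole multiples of the unit. Levels given in reads are therefore approximate. Across tested genes, replicate 3 of the 0 h group, the shallowest library, correlated with the other 0 h libraries at 0.835 to 0.852, and the 12 h libraries correlated with each other at 0.911 to 0.922. Libraries of the 2 groups correlated at 0.661 to 0.744. The hepatocyte markers Alb, Apoa1, Apob and Ttr, which encode albumin, 2 apolipoproteins and transthyretin, were above 0 in all 9 libraries.

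In the acute phase response, bacterial products and the cytokines they induce, chiefly interleukin 1, interleukin 6 and tumour necrosis factor, act on hepatocytes through NF-kB, STAT3 and C/EBP factors. Hepatocytes then secrete large amounts of defence proteins such as serum amyloid A, while transcripts for bile acid transport, drug metabolism and other metabolic work decline. Interferons add a second programme, in which the type I genes answer within hours and the interferon gamma genes include GTPases that attack vacuoles of intracellular pathogens.

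Of 8702 genes whose signal averaged at least 5 across the 36 libraries, 1680 (19.3%) were higher and 1649 (18.9%) lower at 12 h than at 0 h (limma on log2(signal + 1), Benjamini-Hochberg adjusted p under 0.05 over all tested genes). These shares are the background for every count of list members below. Such counts cover the members that passed the filter, and a member that passed it only through the groups where it is high had to differ. The p-value of a gene listed at 0 in every library of 1 of the 2 groups has the same limit. The median log2 change of all tested genes was 0.0078, and 0.11 after each library was rescaled by its upper quartile, where 1936 genes were higher and 1448 lower. In the lists for which no member is given in a direction, at most 1 moved that way at an unadjusted p under 0.05. The values of the 2 groups did not overlap for 2779 tested genes (31.9%). Changes are given as the log2 difference, 12 h minus 0 h, ± its standard error, and "rose" and "fell" are used of genes past the threshold. With 5 in place of 1 added before the log, the differences of 37 genes described below shrank by over 1.5 times. The transcripts that rose most encoded serum amyloids, the siderophore-binding protein lipocalin 2, the LPS co-receptor CD14, an interferon-induced GTPase and neutrophil proteins, and those that fell most encoded steroid, drug and amino acid enzymes, plasma prekallikrein and a nuclear receptor of bile acid control.

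**Figure D1:**
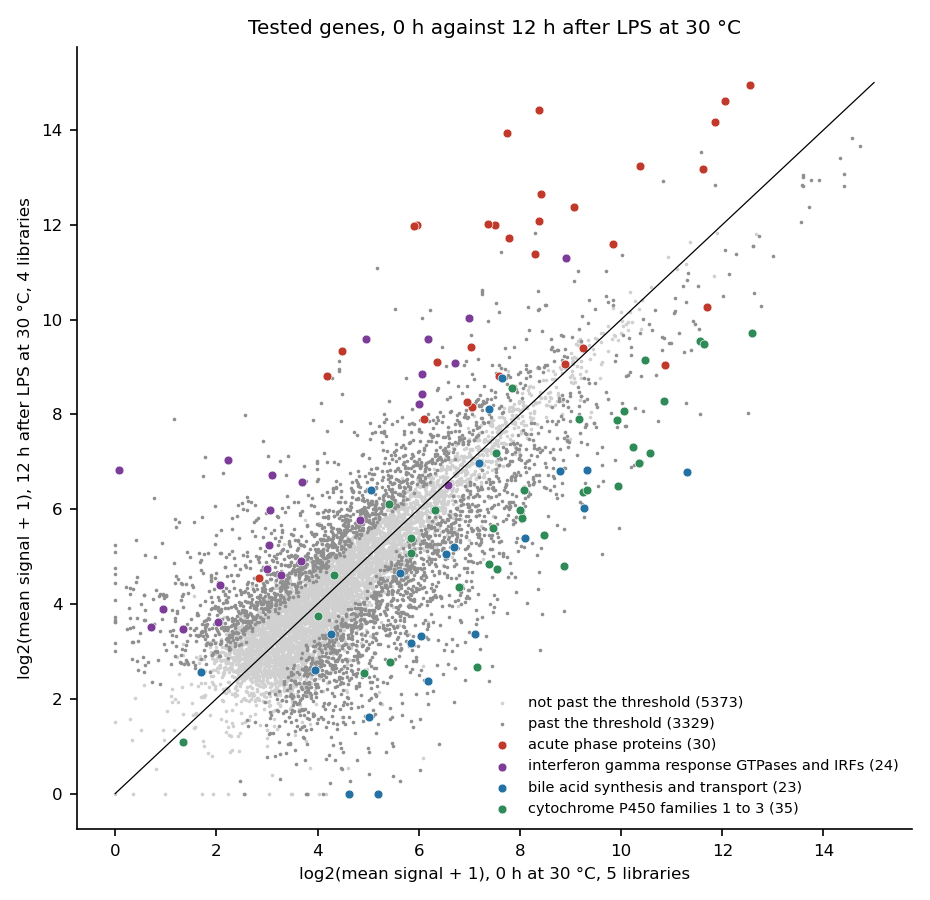
Mean signal of each tested gene at 0 h (horizontal axis, 5 libraries) and 12 h after LPS (vertical axis, 4 libraries) at 30 °C, both on the log2(signal + 1) scale; the line marks equal levels and the number of genes is given in brackets. Most acute phase genes lie above the line and most cytochrome P450 and bile acid genes below it.

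Among the 12 largest rises with groups that did not overlap, Saa1 and Saa2 encode serum amyloid A, an apolipoprotein of high-density lipoprotein during inflammation. Saa1 stood at 269, 378, 556, 158 and 306 in the 0 h libraries and at 23376, 20854, 21926 and 21192 in the 12 h libraries. Every 12 h library was far above every 0 h library, and the log2 difference was 6.14 ± 0.20 (limma adjusted p = 6.1e-22). Saa2 rose by 6.33 ± 0.22 (adjusted p = 6.5e-22) and Saa3 by 6.17 ± 0.30 (adjusted p = 1.0e-17), and reads of Saa1 and Saa2, which are close copies, may have been shared between them. Lcn2, whose product starves bacteria of iron, was at 59.5, 73.6, 71.1, 22.2 and 80.8 at 0 h and at 4544, 3802, 4084 and 3891 at 12 h. The groups were again widely separated, with a log2 difference of 6.15 ± 0.22 (adjusted p = 1.1e-21). Cd14, which hands LPS to Toll-like receptor 4, went from 33.4, 40.6, 47.1, 19.8 and 33.9 at 0 h to 2912, 2039, 1977 and 1720.1 at 12 h, with no overlap and a log2 difference of 5.94 ± 0.29 (adjusted p = 1.7e-17). Tgtp1, an interferon-induced GTPase with a near-identical copy in the genome, had a mean of 0.0528 ± 0.0351 (SD, n = 5) at 0 h, below the worth of 1 read, and was at 160.1, 85.6, 50.6 and 150.3 at 12 h, a log2 difference of 6.60 ± 0.53 (adjusted p = 4.8e-12).

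The other large rises started at or under the level of 3 reads in at least 2 of the 5 libraries, where the log2 difference depends on the 1 added before the log. A2m, the protease trap alpha-2-macroglobulin, had a mean of 0.692 ± 1.10 (SD, n = 5) at 0 h and of 74.4 ± 13.5 (SD, n = 4) at 12 h. S100a8 and S100a9, the calprotectin subunits abundant in neutrophils, had means of 253 ± 73.3 and 137 ± 22.7 at 12 h. Their log2 differences were 5.47 ± 0.33 and 5.49 ± 0.37. Ier3, an early response gene of cell survival, rose by 5.19 ± 0.44, Ubd, a ubiquitin-like modifier induced by interferon gamma and tumour necrosis factor, by 5.14 ± 0.43, and the antiproliferative gene Btg3 by 5.10 ± 0.62.

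Among the 12 largest falls, Klkb1, which encodes plasma prekallikrein of the contact system, was at 393, 365, 298, 304 and 309 at 0 h and at 9.03, 5.16, 9.31 and 5.09 at 12 h. Every 12 h value was far below every 0 h value, and the log2 difference was -5.40 ± 0.31 (adjusted p = 1.3e-15). Nr0b2, the repressor SHP that the bile acid receptor induces, was at 36.8, 34.2, 18.5, 50.2 and 37.6 at 0 h and listed at 0 in all 4 libraries at 12 h (adjusted p = 1.1e-09, with no fold given). Dpys, the pyrimidine-degrading dihydropyrimidinase, went from 869, 956, 584, 889.9 and 659.8 to 10.6, 30.5, 53.5 and 33.5, a log2 difference of -4.76 ± 0.56 (adjusted p = 1.5e-08) without overlap. Nrn1 fell by 4.95 ± 0.34, Hectd2, a ubiquitin ligase of the HECT family, by 4.80 ± 0.36, and Akr1c14, a steroid-reducing enzyme of a gene cluster, by 5.08 ± 0.45. For the other 6, at least 3 of the 4 libraries at 12 h were at or under the level of 3 reads. Of these, Hsd3b3, a steroid dehydrogenase with close relatives in the genome, fell by 5.50 ± 0.49, Cyp26a1, which degrades retinoic acid, by 4.91 ± 0.73 and Adra1b, the alpha-1B adrenergic receptor through which catecholamines act on hepatocytes, by 4.85 ± 0.49. Keg1 fell by 5.35 ± 0.38, Tcea3, a transcription elongation factor, by 5.19 ± 0.39, and Etnppl, which breaks down phosphoethanolamine, by 4.73 ± 0.48.

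**Figure D2:**
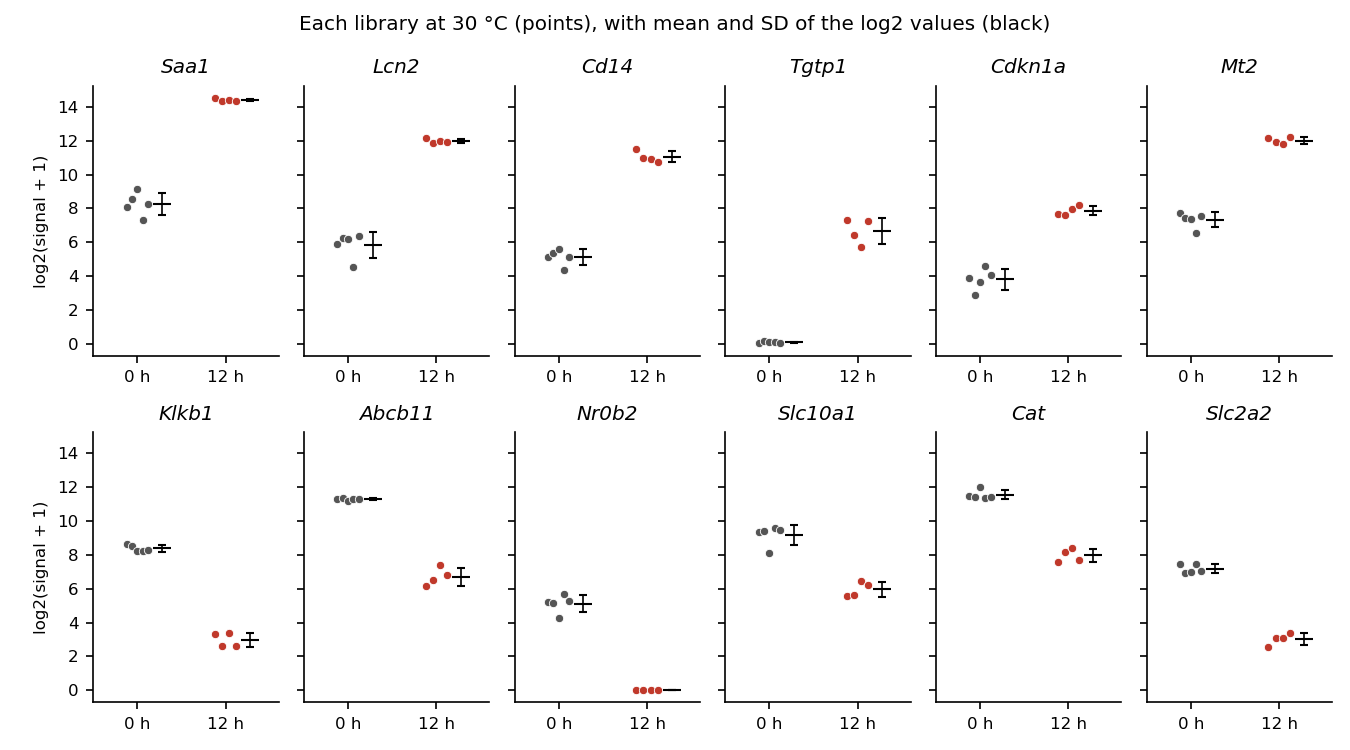
Log2(signal + 1) of 12 genes in each library at 30 °C, 5 at 0 h (grey points) and 4 at 12 h after LPS (red points), with the mean and SD of the log2 values in black. The upper row shows genes that rose and the lower row genes that fell, and in each of the 12 the points of the 2 times do not overlap.

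At the level of LPS recognition, 8 of 13 tested genes rose and 1 fell (median log2 change 1.18). Beside Cd14, Lbp, the serum protein that lifts LPS out of its aggregates, rose by 1.79 ± 0.15, the adaptor gene Myd88 by 2.41 ± 0.27 and Irak3, an inhibitor of the same pathway, by 3.39 ± 0.33 from a level at or under 3 reads in each 0 h library. Tlr2, the receptor for bacterial lipoproteins, was at 2.30, 0, 10.1, 2.34 and 0 at 0 h and at 1.97, 0, 9.92 and 3.35 at 12 h. These overlapped (log2 difference 0.40 ± 0.59, adjusted p = 0.64), whereas the mean at 4 h had been 156 ± 22.2 (SD, n = 4).

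Of 23 tested cytokine and chemokine genes, 14 were higher at 12 h than at 0 h and 2 lower (median 1.69). Cxcl9, an interferon gamma-induced chemokine for T cells, was at 44.0, 39.3, 57.5, 42.0 and 43.0 at 0 h and at 1098, 1183, 1377 and 1135 at 12 h. It rose without overlap by 4.71 ± 0.16 (adjusted p = 6.5e-22). The neutrophil attractant Cxcl1 rose by 2.92 ± 0.41 and the monocyte attractant Ccl2 by 3.36 ± 0.47. Cxcl10, which shares its receptor with Cxcl9, rose by 1.69 ± 0.37, and, both from levels at or under 3 reads, Il33, an alarm cytokine of stromal cells, by 3.15 ± 0.31 and Il1b, encoding interleukin 1 beta, by 1.76 ± 0.43. Cxcl12, the chemokine that retains haematopoietic cells and is made by stromal cells, fell by 2.42 ± 0.25. The B-cell chemokine Cxcl13 had a log2 difference of -0.04 ± 0.73 and was not called. Markers of neutrophils and monocytes moved with this group: 8 of the 11 that passed the filter, out of 26, rose and 1 fell, and their summed signal was 128 to 365 at 0 h and 509.9 to 771 at 12 h. Its part in the cytokine levels was not tested.

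Among receptors and signal transducers, 16 of 35 rose and 4 fell. Il1rn, the interleukin 1 receptor antagonist that hepatocytes release as an acute phase protein, was at 11.2, 25.4, 21.5, 8.07 and 19.9 at 0 h and at 510.3, 362, 394 and 519 at 12 h. It rose by 4.71 ± 0.22 (adjusted p = 8.3e-18), with all 12 h libraries above all 0 h libraries. The receptors Il1r1 and Il17ra rose by 3.15 ± 0.28 and 3.09 ± 0.20. Socs3, the feedback inhibitor of interleukin 6 signalling, rose by 3.38 ± 0.31 from levels at or under 3 reads and Stat3 by 1.69 ± 0.17. Lifr, the receptor of leukaemia inhibitory factor, fell by 2.34 ± 0.28. Il18bp and Socs2 had log2 differences of 0.19 ± 0.25 and 0.36 ± 0.30 and were not called.

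In the NF-kB list 17 of 27 genes rose and 1 fell (median 1.03). The inhibitor gene Nfkbia rose by 1.12 ± 0.20, Nfkbiz, a nuclear cofactor needed for Lcn2 transcription, by 2.15 ± 0.44 and Zc3h12a, an RNase that degrades cytokine mRNA, by 3.33 ± 0.34. Sod2, the mitochondrial superoxide dismutase and an NF-kB target, was at 528, 582, 609, 549 and 547 at 0 h and at 2116, 1846, 2368 and 2012 at 12 h. The groups did not overlap and the log2 difference was 1.88 ± 0.12 (adjusted p = 3.5e-14). Vcam1, an adhesion molecule for leukocytes, rose by 1.45 ± 0.30, while Icam1 was not called (0.06 ± 0.42).

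Of the 30 acute phase protein genes, all tested, 26 rose and 2 fell, and the median log2 change was 2.69. Their summed signal was 23792 to 34509 in the 0 h libraries and 161787 to 195655 in the 12 h libraries. Serpina3n, a protease inhibitor with close copies, was at 159.9, 221, 199, 132 and 198 at 0 h and at 4613, 3540.3, 4079 and 4036 at 12 h. It rose by 4.49 ± 0.16 (adjusted p = 6.5e-22) with widely separated groups. Orm2, an alpha-1-acid glycoprotein with close copies, rose by 4.90 ± 0.26, the leucine-rich glycoprotein gene Lrg1 by 3.71 ± 0.18 and Apcs, the mouse serum amyloid P, by 2.75 ± 0.24. The haemoglobin and heme scavengers Hp and Hpx rose by 3.09 ± 0.15 and 2.86 ± 0.16. Fgb, the beta chain of fibrinogen, was at 6448, 5180.5, 4802, 6473 and 7196 at 0 h and at 33627, 29522, 31826 and 31317 at 12 h. No 0 h value reached the lowest 12 h value, and the log2 difference was 2.41 ± 0.12 (adjusted p = 1.1e-17).

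Promoters of the acute phase and interferon lists were searched for 3 motifs, since members of each list moved together. The window ran from 250 bases before to 50 bases after each start in RefSeq on GRCm38.p6, both strands were read, and a match is only a match of letters. TTGCNNAA, a core that C/EBP factors bind, was found in 15 of 28 promoters of the 25 acute phase genes that matched the table (53.6%), against 3547 of all 32851 promoters (10.8%). TTCNNNGAA, the GAS element that STAT dimers bind, was found in 10 of 19 promoters of the 16 matched interferon gamma genes (52.6%), against 8.3% of all promoters. TTTCNNTTTC, the core of the ISRE that interferon regulatory factors bind, was found in 11 of those 19 promoters (57.9%) and in 14 of 33 promoters of the 28 matched type I genes (42.4%), against 3.44% of all promoters. GAS was also found in 6 of 28 acute phase promoters (21.4%) and in 7 of 33 type I promoters (21.2%). ISRE was found in 10.7% of acute phase promoters, and the C/EBP core in 15.8% of interferon gamma and 3.03% of type I promoters. Among promoters of all genes higher at 12 h, the shares were 10.2% for the C/EBP core, 8.12% for GAS and 5.56% for ISRE. Among promoters of all genes lower at 12 h they were 11.9%, 7.04% and 3.18%. Among tested genes that were not called they were 8.01%, 6.49% and 2.9%.

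The 8 promoters printed here were chosen after values and matches were seen. Saa1, Saa2 and Fgb show the C/EBP core in genes with large acute phase rises. Igtp, Irgm2 and Tgtp1 show GAS next to ISRE in GTPases still high at 12 h. Ifit1 and Rsad2 show ISRE in genes back near their 0 h level. Whether these motifs bear on how long a gene stays high was not tested. Capitals mark every match to 1 of the 3 motifs, read 5′ to 3′ on the strand of the gene.
Saa1 (chr7:46742931-46743230, minus strand): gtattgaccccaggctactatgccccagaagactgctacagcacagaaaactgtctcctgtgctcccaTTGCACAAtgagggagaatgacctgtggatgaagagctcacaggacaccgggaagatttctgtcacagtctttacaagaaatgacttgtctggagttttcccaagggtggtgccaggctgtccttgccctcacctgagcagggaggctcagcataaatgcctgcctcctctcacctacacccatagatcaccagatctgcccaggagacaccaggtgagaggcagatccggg
Saa2 (chr7:46751583-46751882, plus strand): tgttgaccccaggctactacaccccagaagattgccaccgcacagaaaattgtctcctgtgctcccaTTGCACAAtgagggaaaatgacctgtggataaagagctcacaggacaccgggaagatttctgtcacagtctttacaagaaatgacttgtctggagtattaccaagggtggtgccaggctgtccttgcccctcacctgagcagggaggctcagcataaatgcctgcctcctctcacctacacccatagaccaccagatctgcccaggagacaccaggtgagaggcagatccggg
Fgb (chr3:83049814-83050113, minus strand): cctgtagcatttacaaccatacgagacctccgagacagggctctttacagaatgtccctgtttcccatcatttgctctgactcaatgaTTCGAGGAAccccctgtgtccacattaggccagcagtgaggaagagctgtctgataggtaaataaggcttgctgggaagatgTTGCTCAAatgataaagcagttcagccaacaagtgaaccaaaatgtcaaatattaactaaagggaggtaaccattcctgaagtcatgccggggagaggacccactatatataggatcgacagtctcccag
Igtp (chr11:58199306-58199605, plus strand): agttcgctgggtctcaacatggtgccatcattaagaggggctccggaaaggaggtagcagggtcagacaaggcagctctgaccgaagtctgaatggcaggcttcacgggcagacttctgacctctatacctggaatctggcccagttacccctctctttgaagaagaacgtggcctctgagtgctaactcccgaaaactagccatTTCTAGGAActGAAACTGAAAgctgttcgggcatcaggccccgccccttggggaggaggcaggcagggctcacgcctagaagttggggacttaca
Irgm2 (chr11:58214727-58215026, plus strand): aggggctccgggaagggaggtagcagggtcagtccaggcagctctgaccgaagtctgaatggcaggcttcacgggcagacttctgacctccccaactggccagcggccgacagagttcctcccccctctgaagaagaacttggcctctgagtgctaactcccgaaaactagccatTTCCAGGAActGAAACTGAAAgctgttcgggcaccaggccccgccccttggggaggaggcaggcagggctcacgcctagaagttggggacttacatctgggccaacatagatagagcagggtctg
Tgtp1 (chr11:48992197-48992496, minus strand): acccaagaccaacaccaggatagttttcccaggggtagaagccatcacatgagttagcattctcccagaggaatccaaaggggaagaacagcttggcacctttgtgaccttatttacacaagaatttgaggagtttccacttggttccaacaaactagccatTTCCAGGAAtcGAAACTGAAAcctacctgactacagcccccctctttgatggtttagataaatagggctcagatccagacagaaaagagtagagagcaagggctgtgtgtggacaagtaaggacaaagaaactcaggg
Ifit1 (chr19:34640639-34640938, plus strand): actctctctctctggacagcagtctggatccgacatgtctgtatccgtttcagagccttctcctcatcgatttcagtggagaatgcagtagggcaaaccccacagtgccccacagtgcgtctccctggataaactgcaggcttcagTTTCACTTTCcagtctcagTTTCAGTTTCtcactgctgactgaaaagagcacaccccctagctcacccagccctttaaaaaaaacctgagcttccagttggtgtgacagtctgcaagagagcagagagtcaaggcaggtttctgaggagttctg
Rsad2 (chr12:26456403-26456702, minus strand): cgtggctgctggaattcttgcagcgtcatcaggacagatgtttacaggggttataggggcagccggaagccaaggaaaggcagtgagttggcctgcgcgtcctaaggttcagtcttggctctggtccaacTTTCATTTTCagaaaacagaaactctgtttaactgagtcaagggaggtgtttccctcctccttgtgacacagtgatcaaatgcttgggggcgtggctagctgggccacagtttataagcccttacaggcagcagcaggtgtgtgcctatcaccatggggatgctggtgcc

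In Saa1 and Saa2 the same 8 letters, TTGCACAA, end 175 and 176 bases before the start. In the 3 GTPase promoters GAS precedes an ISRE that reads GAAACTGAAA on the strand of the gene, with GAS ending 37, 67 and 80 bases and ISRE ending 25, 55 and 68 bases before the start of Igtp, Irgm2 and Tgtp1. Ifit1 has 2 matches to ISRE, ending 95 and 76 bases before its start, and none to GAS. The letters around the motifs are also alike between Saa1 and Saa2 and among the 3 GTPase promoters, so these are not independent occurrences.

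Of 24 tested interferon gamma GTPase and regulator genes, 22 rose and none fell (median 2.45). Gbp2, a guanylate-binding protein that coats pathogen vacuoles, was at 22.6, 28.3, 55.2, 26.8 and 16.5 at 0 h and at 837, 550.2, 838 and 835 at 12 h. It rose by 4.72 ± 0.27 (adjusted p = 5.9e-16) without overlap. Igtp, an immunity-related GTPase, was at 74.1, 85.6, 75.2, 47.3 and 77.8 at 0 h and at 896, 617, 808 and 773 at 12 h. The log2 difference was 3.42 ± 0.21 (adjusted p = 1.1e-14), and every 12 h library exceeded every 0 h library. Iigp1, Ifi47 and Irgm1, of the same GTPase family, rose by 2.38 ± 0.20, 3.05 ± 0.22 and 2.86 ± 0.26, and Gbp3 by 3.76 ± 0.28. These families hold near-identical copies, so shares between single members are uncertain. The transcription factor gene Irf1 rose by 0.94 ± 0.27 and Wars, a tryptophanyl-tRNA synthetase induced by interferon gamma, by 1.68 ± 0.35.

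The type I interferon list had 26 of 39 tested genes higher and none lower (median 1.52), but several of its best known members were not among them. Ifit1, an inhibitor of viral translation, was at 89.7, 98.1, 184, 78.4 and 86.4 at 0 h and at 119, 93.1, 192 and 175 at 12 h. These overlapped (log2 difference 0.44 ± 0.36, adjusted p = 0.35), whereas the mean at 4 h was 4973 ± 474 (SD, n = 4). Rsad2, the antiviral enzyme viperin, was at 181, 210.4, 443, 199.6 and 157 at 0 h and at 137, 169.6, 126 and 197 at 12 h, with a log2 difference of -0.51 ± 0.43 (adjusted p = 0.37). Isg15, a ubiquitin-like modifier, rose by 2.69 ± 0.28, Ifit3, which has a close copy, by 1.52 ± 0.37, Irf7 by 2.44 ± 0.24, Rtp4 by 2.60 ± 0.24 and Usp18, which removes Isg15 from proteins, by 1.43 ± 0.30. Zbp1, a sensor of left-handed nucleic acid, was at 4.39, 13.2, 22.3, 37.3 and 15.8 at 0 h and at 463, 284, 479 and 512 at 12 h. It rose by 4.70 ± 0.32 (adjusted p = 1.0e-13) with separated groups.

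In antigen presentation, 16 of 21 MHC class I and immunoproteasome genes rose and 1 fell. The immunoproteasome subunits Psmb8, Psmb9 and Psmb10 rose by 2.18 ± 0.26, 2.63 ± 0.49 and 1.96 ± 0.25, and the peptide transporter Tap1 and its partner Tapbp by 2.11 ± 0.23 and 1.39 ± 0.21. H2-D1, a class I heavy chain with close relatives, rose by 1.60 ± 0.11. B2m, the light chain of class I molecules, was at 1587, 1908, 1948, 1259 and 1430.3 at 0 h and at 1241, 989, 1195 and 1259 at 12 h. It fell by a log2 difference of -0.46 ± 0.14 (adjusted p = 0.0068) although the groups overlapped, and was not called after quantile normalization (log2 difference -0.29, adjusted p = 0.10). Of 4 tested class II genes 1 fell and none rose, and H2-Ab1 and Cd74 were not called (0.09 ± 0.38 and -0.79 ± 0.59). The constitutive proteasome list had 14 of 32 genes higher and none lower (median 0.50), with Psma1, Psma5, Psma7 and Psmc6 at 1.06 ± 0.19, 1.09 ± 0.26, 0.70 ± 0.13 and 0.98 ± 0.20. Psmb5 and Psmd1 were not called (0.26 ± 0.22 and 0.25 ± 0.22).

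Other plasma proteins mostly declined. Of 30 carrier and negative acute phase genes, 21 fell and 3 rose (median -0.90). Alb was at 2518, 3006, 2452, 2961 and 2739 at 0 h and at 1093, 926, 998 and 999 at 12 h, a log2 difference of -1.44 ± 0.15 (adjusted p = 9.5e-10) without overlap. Ttr, which carries thyroxine and retinol-binding protein, fell by 1.57 ± 0.22, Rbp4, its partner, by 1.83 ± 0.16, Apoc1 by 1.49 ± 0.13, Serpina6, the corticosteroid-binding globulin, by 1.83 ± 0.36 and Pon1, the paraoxonase of high-density lipoprotein, by 1.36 ± 0.24. Apoa4, an apolipoprotein of triglyceride-rich particles, was at 25.3, 17.7, 28.6, 18.7 and 12.5 at 0 h and at 491, 496, 487 and 456 at 12 h. It rose by 4.54 ± 0.26 (adjusted p = 6.2e-16) with no overlap, and Apoa5, which promotes triglyceride clearance, rose by 2.02 ± 0.19. Apom was not called (0.22 ± 0.32). Among the 5 inter-alpha-trypsin inhibitor genes, Itih3 and Itih4 rose by 1.21 ± 0.18 and 1.76 ± 0.11 and Itih1 fell by 1.20 ± 0.17.

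Of 28 coagulation and fibrinolysis genes, 10 rose and 13 fell. Serpina10, an inhibitor of activated factor X, rose by 2.59 ± 0.15 and Plaur, the urokinase receptor, by 2.84 ± 0.45 from a level under that of 3 reads. The anticoagulants Proc, which encodes protein C, and Serpinc1, antithrombin, fell by 1.84 ± 0.20 and 0.90 ± 0.16. F12 was not called (0.16 ± 0.25). In the complement list 11 of 25 genes fell and 3 rose. C3 rose by 0.63 ± 0.18, while C8a and C9 of the membrane attack complex fell by 1.57 ± 0.26 and 1.50 ± 0.32, the regulator Cfi by 1.18 ± 0.17 and the lectin Mbl2 by 1.23 ± 0.22. Cfb and Mbl1 were not called (0.29 ± 0.17 and 0.23 ± 0.21).

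In iron and heme handling, 8 of 19 genes rose and 6 fell. Hamp, the iron hormone hepcidin, was at 234, 258, 240.3, 177 and 68.4 at 0 h and at 322, 260.2, 328 and 248 at 12 h. The ranges overlapped (log2 difference 0.69 ± 0.31, adjusted p = 0.075), and its mean at 4 h had been 1128 ± 357 (SD, n = 4). Slc40a1, the iron exporter ferroportin, fell by 2.56 ± 0.41. Alas1, the first enzyme of heme synthesis, rose by 3.01 ± 0.20 and Slc39a14, an importer of zinc and iron, by 2.73 ± 0.24. Of 7 metallothionein and zinc transporter genes, 5 rose and 1 fell. Mt2, a zinc-binding metallothionein, was at 211, 171, 162, 93.5 and 186 at 0 h and at 4603, 3822, 3532 and 4681 at 12 h, a log2 difference of 4.69 ± 0.23 (adjusted p = 9.3e-18) without overlap, and Mt1 rose by 4.31 ± 0.22. Slc30a10 was not called (0.46 ± 0.26).

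**Figure D3:**
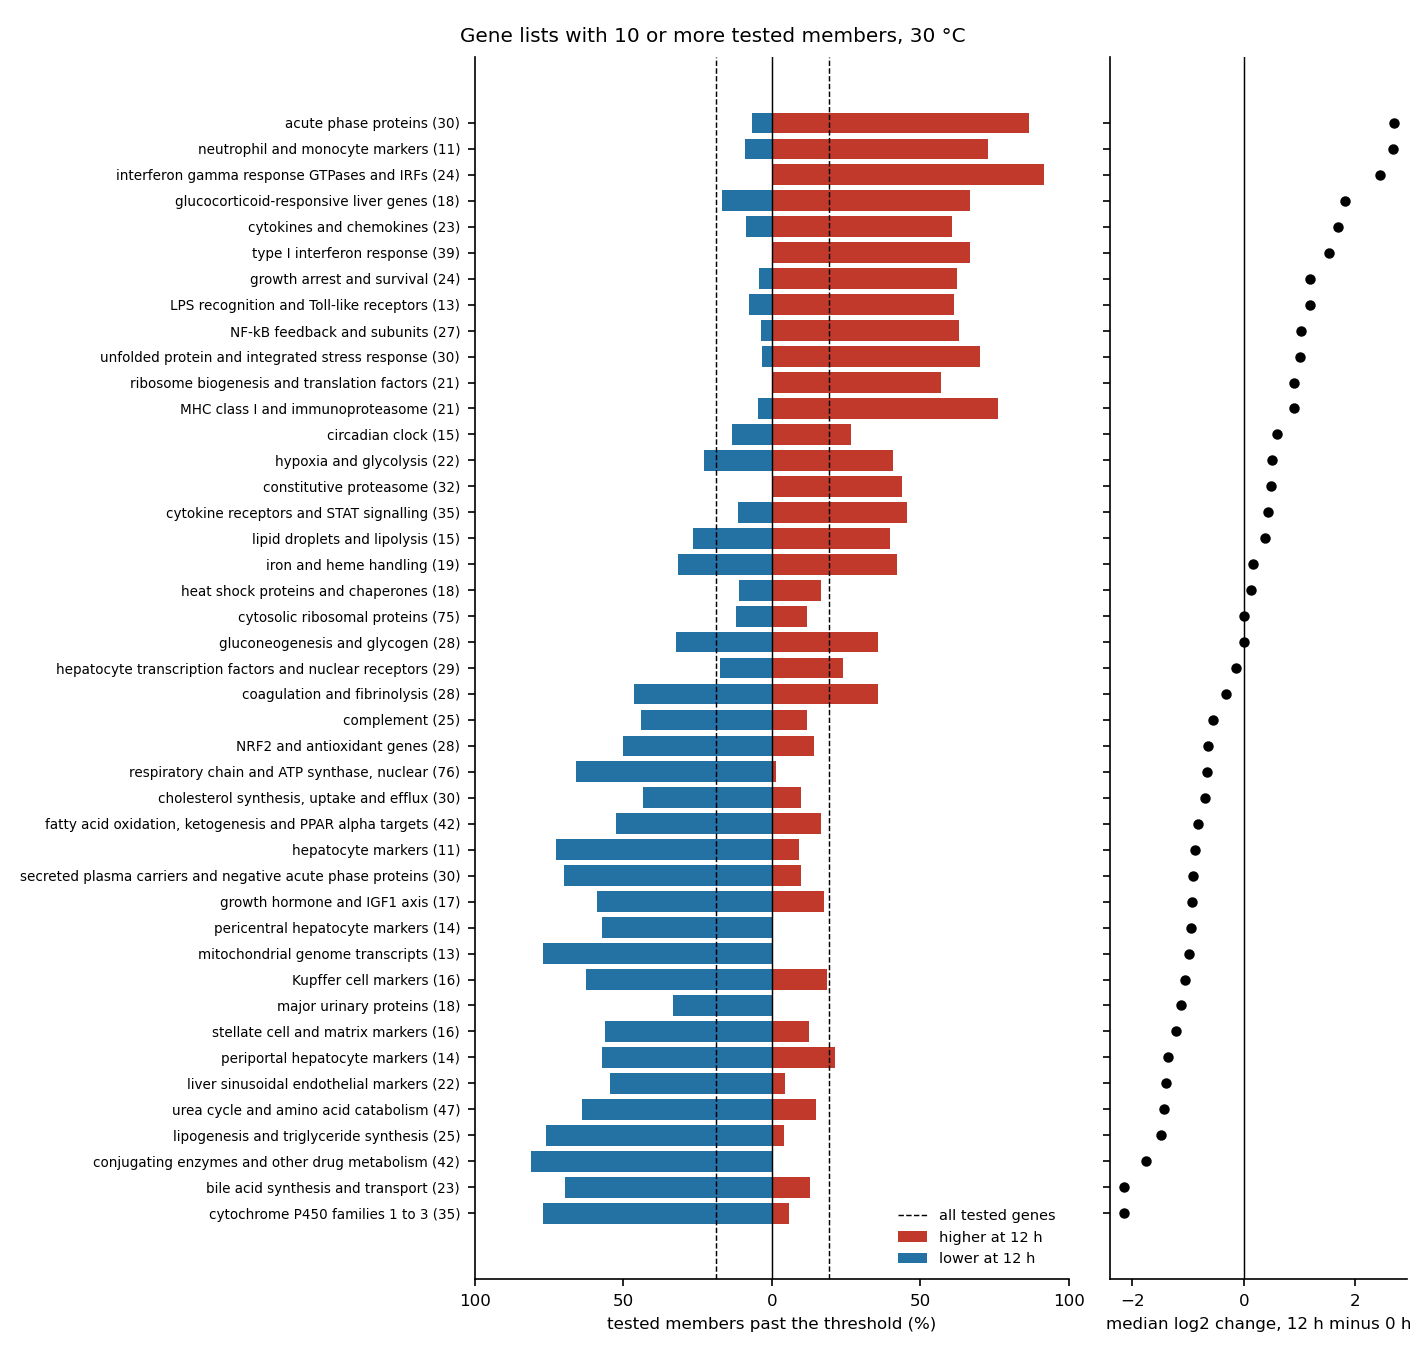
For each list with 10 or more tested members (number in brackets), the left panel shows the percentage of members higher (red, to the right) and lower (blue, to the left) at 12 h than at 0 h, with dashed lines at the 19.3% and 18.9% of all tested genes, and the right panel the median log2 change. Inflammatory lists lie at the top and drug, bile acid and lipid synthesis lists at the bottom.

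In most metabolic lists a larger share of the members fell than the 18.9% of all tested genes. In bile acid synthesis and transport, 16 of 23 tested genes fell and 3 rose, and the median change was -2.15 (-1.55 without the genes listed at 0 throughout 12 h). Cyp7a1, whose enzyme limits the rate of bile acid synthesis, was at 19.0, 54.3, 37.3, 6.62 and 1.29 at 0 h and listed at 0 in all 4 libraries at 12 h (adjusted p = 1.4e-05). Abcb11, the bile salt export pump, was at 2571, 2665, 2339.9, 2547 and 2571 at 0 h and at 69.1, 89.5, 167 and 110.4 at 12 h. It fell by 4.60 ± 0.31 (adjusted p = 4.4e-14) with widely separated groups. Slc10a1, the uptake transporter NTCP, was at 661, 669, 275, 760.2 and 720.2 at 0 h and at 46.1, 48.4, 86.5 and 74.4 at 12 h, a log2 difference of -3.22 ± 0.33 (adjusted p = 1.0e-09) without overlap. Cyp8b1, which sets the share of cholic acid, fell by 3.07 ± 0.65, the uptake carrier Slco1b2 by 2.58 ± 0.35, the canalicular exporter Abcc2 by 2.72 ± 0.34, the sinusoidal exporter Abcc3 by 1.46 ± 0.30 and the bile acid ligase Slc27a5 by 1.48 ± 0.21. Cyp7b1 and the bile acid receptor gene Nr1h4 were not called (-0.93 ± 0.48 and -0.22 ± 0.23).

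Of 35 cytochrome P450 genes of families 1 to 3, which oxidise drugs and steroids, 27 fell and 2 rose (median -2.16). Cyp3a11 was at 7469, 6674, 3430.3, 6305 and 7050.2 at 0 h and at 868, 707, 892 and 887 at 12 h, a log2 difference of -2.84 ± 0.30 (adjusted p = 2.1e-09) without overlap. Cyp3a25 fell by 4.09 ± 0.26, Cyp1a2 by 2.91 ± 0.26, Cyp2c29, Cyp2c37 and Cyp2c68 by 1.89 ± 0.30, 3.40 ± 0.27 and 2.57 ± 0.20, Cyp2e1 by 1.96 ± 0.25, Cyp2f2 by 1.84 ± 0.30 and Cyp2d26 by 1.23 ± 0.14. Reads may be shared between members of the Cyp2c and Cyp3a clusters. Of 42 conjugating and other drug-metabolising genes, 34 fell and none rose (median -1.75). The glucuronosyltransferases Ugt2b1, Ugt2b5 and Ugt2b36, which have close copies, fell by 3.01 ± 0.34, 2.91 ± 0.26 and 2.85 ± 0.24, Aox3, an aldehyde oxidase, by 3.87 ± 0.35, the carboxylesterases Ces1c and Ces3a by 1.52 ± 0.14 and 2.11 ± 0.31, Fmo5 by 1.66 ± 0.34, Ephx1 by 1.48 ± 0.27, Sult1a1 by 1.36 ± 0.22 and Adh1 by 1.16 ± 0.17.

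Of 47 urea cycle and amino acid genes, 30 fell and 7 rose (median -1.43). The urea cycle genes Cps1, Otc and Ass1 fell by 1.41 ± 0.24, 1.94 ± 0.26 and 1.43 ± 0.31, but Arg1, arginase, was at 1068, 1188, 1023, 898 and 1025 at 0 h and at 3089, 2024, 2728 and 2615 at 12 h. It rose by 1.32 ± 0.17 (adjusted p = 1.1e-07), again without overlap. The histidine-degrading genes Uroc1, Amdhd1 and Hal fell by 3.05 ± 0.25, 2.22 ± 0.20 and 1.77 ± 0.23, the glutaminase Gls2 by 2.62 ± 0.24, the tyrosine-degrading Hpd by 2.27 ± 0.25 and Bhmt, which remethylates homocysteine, by 3.01 ± 0.40. Mat1a, which makes S-adenosylmethionine, rose by 0.97 ± 0.19. Glul and Oat were not called (-0.50 ± 0.31 and -0.66 ± 0.27).

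In lipogenesis and triglyceride synthesis 19 of 25 genes fell and 1 rose (median -1.48). Scd1, which desaturates stearate, was at 6746, 3963, 9502, 6732 and 4622 at 0 h and at 1099, 1372, 2401 and 1155 at 12 h, a log2 difference of -2.07 ± 0.36 (adjusted p = 2.1e-05) without overlap. Srebf1, the factor that drives the pathway, fell by 2.39 ± 0.31, Fasn by 1.88 ± 0.43, Acly by 1.91 ± 0.27, the desaturases Fads1 and Fads2 by 2.77 ± 0.20 and 1.69 ± 0.29, Dgat2 by 1.23 ± 0.29 and Lipc, hepatic lipase, by 1.88 ± 0.19. Lpin1, a phosphatidate phosphatase and coactivator induced on fasting, was at 35.3, 22.7, 30.5, 32.0 and 43.9 at 0 h and at 192, 186, 176 and 227 at 12 h. This was the member of the list that rose (2.56 ± 0.29, adjusted p = 8.1e-09). Mttp was not called (-0.25 ± 0.18).

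Lipid droplet genes moved both ways, with 6 of 15 higher and 4 lower. Cidec, a droplet-fusing protein, was listed at 0 in all 5 libraries at 0 h and at 36.1, 32.4, 30.4 and 33.7 at 12 h (adjusted p = 3.1e-12). Plin2, the main droplet coat protein of hepatocytes, rose by 2.65 ± 0.22, and Hilpda and G0s2, both inhibitors of triglyceride lipase, by 3.59 ± 0.43 and 1.85 ± 0.40. Lpl, lipoprotein lipase, fell by 3.22 ± 0.43 and Vldlr by 1.74 ± 0.55, and Plin5 was not called (0.86 ± 0.43). In cholesterol metabolism 13 of 30 genes fell and 3 rose. Insig1 and Insig2, brakes on sterol synthesis, fell by 2.74 ± 0.29 and 0.84 ± 0.26, the synthesis genes Hmgcs1 and Sc5d by 1.53 ± 0.29 and 2.26 ± 0.18 and the sterol exporter Abcg5 by 1.95 ± 0.33. Abca1, the cholesterol exporter that forms high-density lipoprotein, and the squalene epoxidase Sqle rose by 1.86 ± 0.16 and 1.67 ± 0.31.

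Of 42 genes of fatty acid oxidation, ketogenesis and other PPAR alpha targets, 22 fell and 7 rose (median -0.82). Hadh, a dehydrogenase of mitochondrial beta-oxidation, was at 775, 918, 1205, 781 and 1047 at 0 h and at 113, 126, 169 and 111 at 12 h, a log2 difference of -2.86 ± 0.21 (adjusted p = 4.8e-13) without overlap. Fabp1, the liver fatty acid-binding protein, fell by 3.04 ± 0.28, Acsl1, which activates fatty acids, by 2.87 ± 0.24, Acadm by 1.31 ± 0.18, Ehhadh by 1.48 ± 0.32 and Cyp4a14 by 1.70 ± 0.32. Bdh1, an enzyme of ketone body metabolism, fell by 2.46 ± 0.25. Cpt1a, which admits fatty acids into mitochondria, and Angptl4, an inhibitor of lipoprotein lipase, rose by 1.37 ± 0.26 and 1.85 ± 0.36. Ppara itself and Cpt2 were not called (-0.14 ± 0.40 and 0.19 ± 0.21).

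In gluconeogenesis and glycogen metabolism 10 of 28 genes rose and 9 fell. Pck1 and G6pc, the first and last enzymes particular to glucose output, were not called (0.26 ± 0.28 and -0.71 ± 0.40). Fbp1, fructose bisphosphatase, rose by 1.87 ± 0.20, Pcx, pyruvate carboxylase, by 0.56 ± 0.16, Gpt2 by 1.71 ± 0.21, Tat, tyrosine aminotransferase, by 1.79 ± 0.22 and Irs2, an insulin receptor substrate, by 1.22 ± 0.26. Gys2, glycogen synthase, and Pygl, glycogen phosphorylase, both fell, by 1.28 ± 0.30 and 1.62 ± 0.27, and Ppp1r3c, which targets a phosphatase to glycogen, by 4.38 ± 0.57 to a level at or under 3 reads in 3 of the 4 libraries. In the hypoxia and glycolysis list 9 of 22 genes rose and 5 fell. Slc2a2, the hepatocyte glucose transporter GLUT2, was at 176, 122, 126, 177 and 129 at 0 h and at 4.91, 7.63, 7.44 and 9.20 at 12 h. It fell by 4.16 ± 0.30 (adjusted p = 2.6e-13) with separated groups. Hif1a rose by 2.64 ± 0.24, Pkm, the pyruvate kinase of other tissues, by 2.54 ± 0.47, Ldha by 1.84 ± 0.16 and Pfkfb3, which raises glycolytic flux, by 2.14 ± 0.31. Hk2 was not called (1.21 ± 0.78).

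Nuclear genes of the respiratory chain and ATP synthase had 50 of 76 members lower and 1 higher, with a median of -0.67. Ndufa6 and Ndufa10 of complex I fell by 1.36 ± 0.20 and 1.15 ± 0.14, Sdha by 0.65 ± 0.17, Uqcrfs1 by 0.80 ± 0.12 and Atp5b by 0.76 ± 0.13. Cycs, cytochrome c, was the member that rose (0.73 ± 0.13), and Cox5a was not called (-0.07 ± 0.26). Of 13 transcripts of the mitochondrial genome, 10 fell and none rose (median -0.99). Among them mt-Nd4 fell by 1.34 ± 0.17, mt-Cytb by 1.06 ± 0.13, mt-Co3 by 0.79 ± 0.11 and mt-Nd1 by 0.82 ± 0.14, while mt-Co1 was not called (-0.06 ± 0.22). In the list of NRF2 targets and antioxidant enzymes 14 of 28 genes fell and 4 rose. Cat, catalase, was at 2875, 2775, 4148, 2656 and 2708 at 0 h and at 189, 289, 343 and 205 at 12 h and fell by 3.58 ± 0.29 (adjusted p = 4.8e-12) without overlap. Gsta3, a glutathione transferase, fell by 3.36 ± 0.27, Sod1 by 0.89 ± 0.13 and Gstp1, which has an identical value in the table under another gene, by 0.81 ± 0.22. Txnrd1, a classical NRF2 target, rose by 0.87 ± 0.20.

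Transcription factors of hepatocyte identity moved in both directions. Of 29 tested, 7 rose and 5 fell, shares near the 19.3% and 18.9% of all genes, with a median of -0.13. Hnf4a, the factor on which hepatocyte identity rests, was at 66.3, 70.2, 82.0, 57.7 and 69.1 at 0 h and at 95.1, 80.6, 95.6 and 87.4 at 12 h. The groups overlapped (log2 difference 0.38 ± 0.17, adjusted p = 0.087). Cebpa (-0.18 ± 0.28), Rxra (-0.13 ± 0.18), Nr5a2 (-0.44 ± 0.23), Klf15 (0.22 ± 0.63) and the pregnane X receptor gene Nr1i2 (-0.51 ± 0.27) were not called either. Cebpb and Cebpd, which take part in the acute phase response, rose by 2.50 ± 0.21 and 2.68 ± 0.29. Nr1i3, the xenobiotic receptor CAR, was at 57.2, 38.6, 53.0, 34.5 and 59.9 at 0 h and at 10.2, 4.77, 13.2 and 21.2 at 12 h, a log2 difference of -2.02 ± 0.57 (adjusted p = 0.0046) without overlap.

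Hormone-responsive genes changed in several ways. In the growth hormone and IGF1 axis 10 of 17 genes fell and 3 rose. Ghr, the growth hormone receptor, was at 159, 203, 109, 149 and 118 at 0 h and at 40.9, 22.4, 51.9 and 33.8 at 12 h. It fell without overlap by 1.98 ± 0.24 (adjusted p = 2.5e-08). Igf1 fell by 0.92 ± 0.17, Igfals, which stabilises circulating IGF1, by 2.87 ± 0.38, Igfbp2 by 1.98 ± 0.28 and the prolactin receptor Prlr by 2.47 ± 0.21. Igfbp1, a binding protein that insulin represses, was at 101, 155, 67.3, 264 and 167 at 0 h and at 2082, 1321, 1113 and 1636 at 12 h. It rose by 3.45 ± 0.41 (adjusted p = 2.4e-08) with no overlap, and Egfr rose by 1.00 ± 0.23. Of 18 major urinary protein genes, near-identical copies under growth hormone control, 6 fell and none rose, and Mup3, Mup16 and Mup20 fell by 1.74 ± 0.23, 1.41 ± 0.35 and 2.27 ± 0.23. Of 18 glucocorticoid-responsive genes 12 rose and 3 fell (median 1.82), a list that also holds Lcn2, Mt1 and Mt2. Fkbp5, a chaperone of the glucocorticoid receptor, rose by 1.73 ± 0.34 and Pdk4, which blocks pyruvate oxidation, by 3.05 ± 0.56. Tsc22d3 and Sgk1, both well-known targets of the receptor, were not called (-0.84 ± 0.45 and -0.01 ± 0.43), and Hsd11b1, which regenerates corticosterone, fell by 1.52 ± 0.15.

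Among 15 tested clock genes, 4 rose and 2 fell, against 19.3% and 18.9% of all genes. Per1 and Per2 rose by 3.58 ± 0.48 and 2.46 ± 0.52 from levels at or under 3 reads, and Arntl and Nr1d1 fell by 1.39 ± 0.39 and 2.27 ± 0.49, Nr1d1 to such levels. Clock transcripts cycle over the day, and the clock times of the 0 h and 12 h samples were not found in the sources used here, so their part in this result was not tested.

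Stress and growth genes mostly rose. Of 30 genes of the unfolded protein and integrated stress responses, 21 rose and 1 fell (median 1.02). Hspa5, the chaperone BiP, was at 197, 252, 141, 201 and 197 at 0 h and at 524, 383, 622 and 487 at 12 h, a log2 difference of 1.35 ± 0.23 (adjusted p = 1.2e-05) without overlap. Xbp1 rose by 2.20 ± 0.21, Atf4 by 0.98 ± 0.21 and Creb3l3, a factor that drives hepcidin and serum amyloid P, by 1.04 ± 0.20. From levels at or under 3 reads in at least 3 of the 5 libraries, the glutathione-degrading Chac1 rose by 4.20 ± 0.47, Ddit4, an inhibitor of mTORC1, by 3.06 ± 0.31, the stress factor gene Atf3 by 2.42 ± 0.51 and the hormone gene Fgf21 by 3.58 ± 0.62. Of 24 growth arrest and survival genes 15 rose and 1 fell. Cdkn1a, the cell cycle inhibitor p21, had a mean of 14.1 ± 6.11 (SD, n = 5) at 0 h and was at 201, 197, 249 and 288 at 12 h. It rose by 4.05 ± 0.32 (adjusted p = 3.1e-12) without overlap. Btg2 rose by 2.82 ± 0.45, Gadd45g by 2.11 ± 0.32, Mlkl, the executor of necroptosis, by 3.38 ± 0.60, Casp4, the sensor of LPS in the cytosol, by 1.67 ± 0.40, Mcl1 by 0.99 ± 0.20 and Myc by 1.71 ± 0.53. Gadd45a and Gadd45b were not called (0.30 ± 0.61 and 1.17 ± 0.56). Among the 4 cell cycle genes that passed the filter, Ccnd1, cyclin D1, fell by 2.20 ± 0.43.

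Of 18 genes on the heat shock list, which also holds the cold-induced Rbm3, 3 rose and 2 fell, shares below the background in both directions. With replicate 3 of 0 h left out 4 were lower. Rbm3, an RNA-binding protein that cold induces, was at 39.0, 37.9, 55.1, 59.1 and 94.7 at 0 h and at 244, 289, 288 and 284 at 12 h. It rose by 2.33 ± 0.19 (adjusted p = 7.9e-12) without overlap, while Cirbp, the other cold-inducible gene, was not called (0.79 ± 0.38). Hspb8 and its partner Bag3 rose by 1.88 ± 0.21 and 1.48 ± 0.30. Hspa8, Hsph1 and Hsp90aa1 were not called (-0.04 ± 0.22, -0.57 ± 0.32 and 0.16 ± 0.30). Ribosome biogenesis and translation factors had 12 of 21 members higher and none lower, among them Ncl, nucleolin (0.96 ± 0.16), Nop58 (1.28 ± 0.24), Eif1a (1.89 ± 0.17), Eif2s1 (1.29 ± 0.22) and Eif4ebp1, a repressor of translation initiation (1.41 ± 0.30). Npm1 and Fbl were not called (0.34 ± 0.14 and 0.42 ± 0.34). Of 75 cytosolic ribosomal protein genes 9 rose and 9 fell, both below the background, and the median was 0.0014. After rescaling each library by its upper quartile the split became 15 higher and 4 lower and the median 0.11, and without replicate 3 of 0 h it was 5 higher and 11 lower with a median of -0.084. Rps9 and Rps20 rose by 0.65 ± 0.14 and 0.70 ± 0.17, Rpl36 fell by 0.92 ± 0.21, and Rpl3, Rplp0 and Rps6 were not called (0.23 ± 0.19, 0.03 ± 0.11 and 0.22 ± 0.17).

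Markers of the cell types in the liver differed in direction. In bulk tissue fewer cells of a type and less RNA per cell cannot be told apart, nor more cells and more RNA. Of 22 tested markers of liver sinusoidal endothelium, 12 fell and 1 rose (median -1.40), and their summed signal was 1185 to 1445 at 0 h and 354 to 480.2 at 12 h. Mrc1, the mannose receptor that clears glycoproteins, was at 125, 105, 80.5, 90.2 and 73.8 at 0 h and at 7.23, 7.80, 0 and 7.69 at 12 h. It fell by 4.23 ± 0.49 (adjusted p = 1.0e-08) without overlap. Clec4g, a lectin of these cells, fell by 4.70 ± 0.50 and was at 0 in 1 of the 12 h libraries, Ehd3 fell by 3.59 ± 0.33, Fcgr2b by 1.76 ± 0.34 and Dnase1l3 by 1.34 ± 0.28. Lyve1, the hyaluronan receptor, rose by 1.71 ± 0.34, and Gpr182 and Egfl7 were not called (-0.26 ± 0.67 and 0.05 ± 0.29).

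Of 16 Kupffer cell markers, 10 fell and 3 rose, and the summed signal was 502 to 621 at 0 h and 210.3 to 269 at 12 h. Vsig4, a complement receptor of resident macrophages, was at 44.0, 46.9, 31.1, 52.6 and 42.6 at 0 h and at 0, 4.18, 3.06 and 1.03 at 12 h. It fell by 4.10 ± 0.48 (adjusted p = 1.5e-08). Cd5l fell by 3.85 ± 0.47, Clec4f by 1.93 ± 0.35, C1qa by 1.63 ± 0.40 and Csf1r by 1.00 ± 0.27, whereas Marco, a scavenger receptor, rose by 1.86 ± 0.42. Of 16 stellate cell and matrix genes 9 fell and 2 rose. Lrat, which stores retinol as ester, fell by 3.12 ± 0.47, the collagen gene Col1a2 by 2.67 ± 0.35, Colec11 by 3.41 ± 0.54 to levels at or under 3 reads, Timp2 by 2.69 ± 0.40 and Ecm1 by 0.96 ± 0.29. Timp1, an inhibitor of matrix proteases, was listed at 0 in all 5 libraries at 0 h and at 12.2, 14.9, 5.98 and 13.8 at 12 h (adjusted p = 2.6e-08), and Dcn was not called (-0.11 ± 0.13).

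Of 14 pericentral and 14 periportal hepatocyte markers, 8 and 8 fell and 0 and 3 rose (median -0.94 and -1.36). Rgn, regucalcin, fell by 3.46 ± 0.48 and Gulo, which makes vitamin C, by 1.93 ± 0.25 on the pericentral side. On the periportal side Etnppl fell by 4.73, Hal by 1.77 and Hsd17b13 by 0.94 ± 0.16. Ctsc was not called (-0.20 ± 0.15). Of 11 general hepatocyte markers 8 fell and 1 rose, and their summed signal, which includes fibrinogen, was 41282 to 66011 at 0 h and 50040.4 to 57488 at 12 h. Apoa1 fell by 0.88 ± 0.15 and Serpina1a, alpha-1-antitrypsin with close copies, by 1.82 ± 0.15, and Apob was not called (0.06 ± 0.19).

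The granule protein gene Ngp, made by immature neutrophils, was listed at 0 in all 5 libraries at 0 h and at 20.6, 22.1, 22.3 and 18.4 at 12 h (adjusted p = 4.5e-08). This p-value, like those of Timp1 and Cidec, has the limit given above for genes listed at 0 throughout a group. Itgb2, the integrin chain of leukocytes, rose by 1.84 ± 0.39, whereas Lyz2, lysozyme of macrophages and neutrophils, was at 33.4, 72.3, 281, 40.9 and 48.9 at 0 h and at 15.7, 26.3, 15.7 and 11.7 at 12 h and fell by 1.95 ± 0.43. Of 20 T and NK cell markers 2 passed the filter, the granzyme gene Gzmb and the chemokine gene Ccl5, which had log2 differences of 2.83 ± 0.47 and 3.83 ± 0.48. The defining marker Nkg7, which is below the filter, was listed at 0 in 4 of the 5 libraries at 0 h and in 2 of the 4 at 12 h, with highest values of 3.21 and 2.51. The platelet gene Ppbp rose by 2.23 ± 0.68, and the haemoglobin genes Hba-a1 and Hbb-bs, which have near-identical copies, were not called (-0.45 ± 0.35 and 0.09 ± 0.33). The defining B-cell genes were below the filter. Cd79b was listed at 0 in all 9 libraries, whereas Cd79a was at 1.27 to 13.8 at 0 h and at 0 to 0.98 at 12 h. Igkc was at 0 to 6.91 at 0 h and at 0.83 to 1.70 at 12 h. The cholangiocyte gene Krt19 was listed at 0 in 4 of the 5 libraries at 0 h and in all 4 at 12 h. Epcam, also below the filter, was at 0 to 8.78 at 0 h and at 0.83 to 3.93 at 12 h. Of 5 tested genes on the cholangiocyte list 3 rose and 2 fell. The keratin genes Krt8 and Krt18 rose by 1.02 ± 0.28 and 1.19 ± 0.22, and Sox9 fell by 1.45 ± 0.39. The part of these cells in the changes of the gene lists was not tested.

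Against 4 h at 30 °C, 1073 of 8702 genes (12.3%) were higher at 12 h and 1557 (17.9%) lower. This contrast shares its 12 h libraries with the one against 0 h, and it depends on the scaling between libraries: after upper quartile rescaling 1723 genes were higher and 1166 lower, after quantile normalization 1574 and 1255, and the median of all genes moved from -0.031 to 0.21 and 0.10. Replicate 4 of the 4 h group stood apart, with 18633 genes above 0 against 12321 to 14101 in the other libraries of that group. Without it 1052 genes were higher and 1401 lower, and the median was 0.041. Type I interferon genes were lower at 12 h than at 4 h in 29 of 39 members (median -1.67). Cytokines and chemokines were lower in 16 of 23 (median -1.85) and NF-kB genes in 16 of 27 (median -1.43). Interferon gamma genes were lower in 15 of 24 members and higher in none (median -1.19). Their median summed signal was 16653 at 4 h and 7867 at 12 h, against 1178 at 0 h. Ifit1 had a mean of 4973 ± 474 at 4 h and 145 ± 46.5 at 12 h, a log2 difference of -5.15 ± 0.38 (adjusted p = 3.4e-12). Cmpk2, a mitochondrial nucleotide kinase next to Rsad2, went from 1838 ± 451 to 17.6 ± 4.09, a difference of -6.62 ± 0.44 (adjusted p = 5.5e-13). Its 0 h mean was 27.3 ± 7.01, and the difference between 12 h and 0 h was -0.59 ± 0.42 (adjusted p = 0.28). Cxcl10 and Ifit3b fell since 4 h by 5.25 ± 0.38 and 5.16 ± 0.36. Bile acid genes were lower at 12 h than at 4 h in 14 of 23 members, P450 genes in 25 of 35 and nuclear respiratory chain genes in 48 of 76. After upper quartile rescaling these counts were 12, 25 and 21, and those of the type I interferon, cytokine and NF-kB lists 28, 15 and 16. Abcb11 had a mean of 2060.4 ± 728 at 4 h against 2539 ± 120.0 at 0 h and 109 ± 42.3 at 12 h.

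Genes that rose between 4 and 12 h included several that were low at 4 h. Apoa4 had means of 20.6 ± 6.39 at 0 h, 22.2 ± 8.67 at 4 h and 483 ± 18.1 at 12 h, and its log2 difference from 4 h was 4.47 ± 0.27 (adjusted p = 9.3e-14). G0s2 had means of 39.2 ± 14.1 at 0 h, 0.988 ± 1.27 at 4 h and 135 ± 15.8 at 12 h (difference from 4 h 6.31 ± 0.42, adjusted p = 5.3e-13). Gde1, a phosphodiesterase of lipid metabolism, rose from 4 h by 2.87 ± 0.18 and from 0 h by 2.27 ± 0.17. The zinc exporter gene Slc30a1 rose from 4 h by 2.99 ± 0.22, and its values are identical in the table to those of another gene, so the source of its reads is uncertain. Acute phase genes split, with 9 higher and 7 lower at 12 h than at 4 h (14 and 5 after upper quartile rescaling, 18 and 5 after quantile normalization).

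Against 12 h, 1006 genes (11.6%) were higher and 828 (9.52%) lower at 24 h at 30 °C. After upper quartile rescaling 979 were higher and 815 lower, and after quantile normalization 996 and 886. Interferon gamma genes fell between 12 and 24 h in 20 of 24 members (median -2.56) and type I genes in 30 of 39 (median -1.51), and none rose in either list. Gbp2 had a mean of 765 ± 143 at 12 h and 26.4 ± 8.15 at 24 h, a log2 difference of -4.84 ± 0.27 (adjusted p = 2.5e-15), with a 0 h mean of 29.9 ± 14.9. Gbp7, Gbp6, Iigp1, Igtp and Ifi47 fell by 3.53 ± 0.18, 2.76 ± 0.21, 3.35 ± 0.20, 3.61 ± 0.21 and 3.60 ± 0.22. Nuclear respiratory chain genes rose between 12 and 24 h in 52 of 76 members (median 0.68). Fatty acid oxidation genes rose in 28 of 42 and urea cycle and amino acid genes in 27 of 47. Cytosolic ribosomal protein genes also rose in this step, in 46 of 75 members with none lower (median 0.50). The ribosomal count was 30 or 26 without replicates 1 or 2 of 12 h and 28 without replicate 5 of 24 h. Bhmt had means of 1699 ± 254 at 0 h, 232 ± 116 at 12 h and 4708 ± 2729 at 24 h, a difference of 4.23 ± 0.40 from 12 h (adjusted p = 1.3e-09). The gap junction gene Gjb1 had means of 452 ± 10.3, 78.1 ± 5.27 and 312 ± 61.1 at these times and rose from 12 h by 1.96 ± 0.15. P450 genes moved both ways, with 10 of 35 higher and 10 lower at 24 h than at 12 h. Saa1 had a mean of 21837 ± 1119.5 at 12 h and of 34686 ± 5685 at 24 h.

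**Figure D4:**
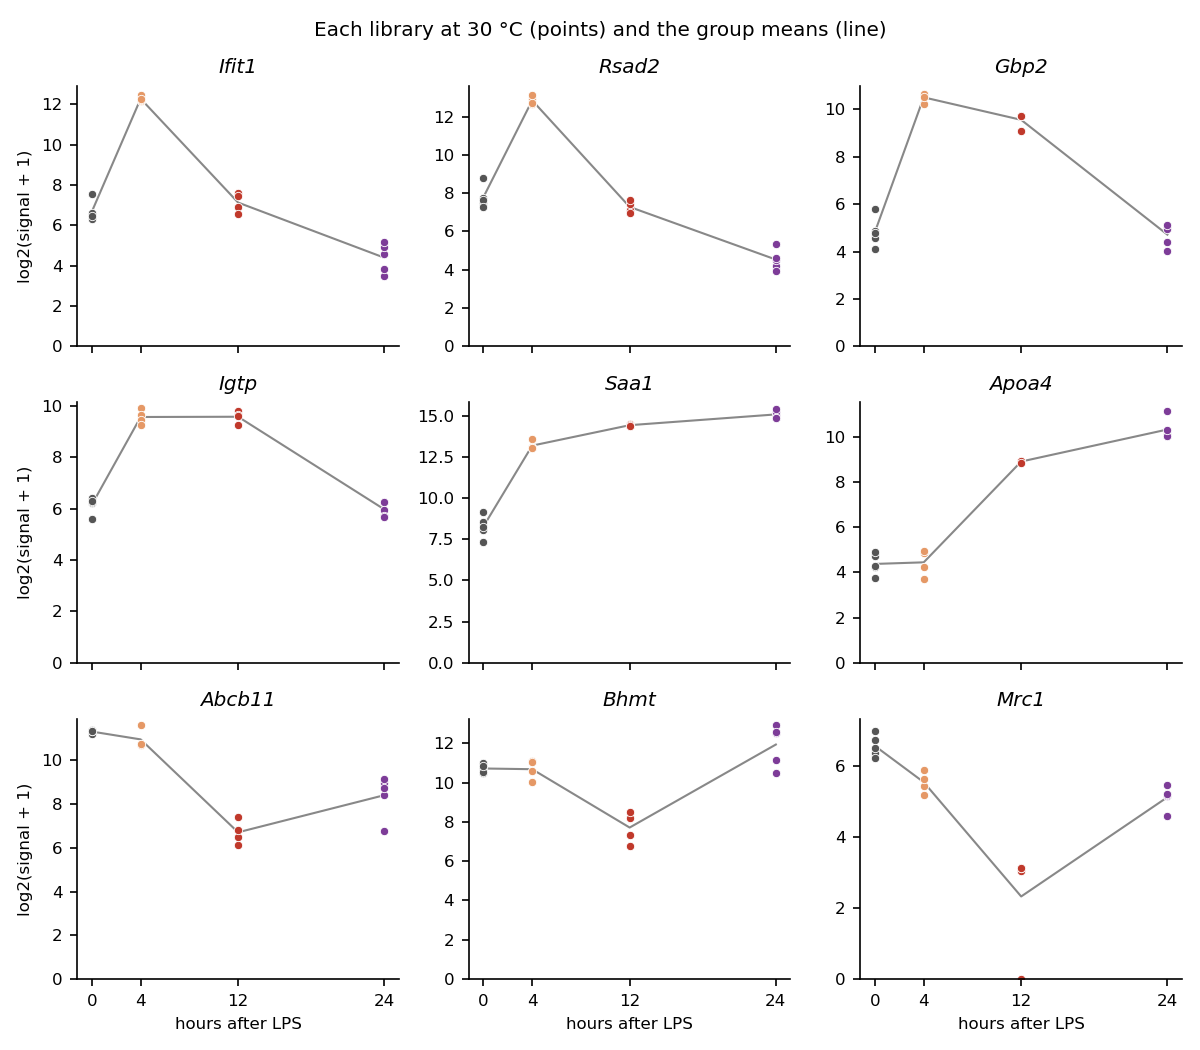
Log2(signal + 1) of 9 genes at 0, 4, 12 and 24 h after LPS at 30 °C, with 1 point per library (5, 4, 4 and 5 libraries) and a line through the group means. Ifit1 and Rsad2 peak at 4 h and are back near their 0 h level at 12 h, Gbp2 and Igtp are high at 4 and 12 h, Saa1 and Apoa4 have their highest means at 24 h, and Abcb11, Bhmt and Mrc1 their lowest at 12 h.

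At 22 °C the same interval was tested in 4 libraries at 0 h and 5 at 12 h, and the change to 12 h at 30 °C minus that at 22 °C passed the threshold for 6 genes upwards (0.0689%) and 18 downwards (0.207%) of 8702. At an unadjusted p under 0.05 there were 1041 genes, and after quantile normalization 9 and 15 genes passed. These calls rest on few libraries. Past the threshold without any single library were 2 of the 24, Tcea3 and Hacl1. Without replicate 2 of 12 h at 22 °C 2 genes passed upwards and 1 downwards, without replicate 1 of 12 h at 30 °C 1 and 2, without replicates 2 or 4 of that group 2 and 6 each, without replicate 3 of 0 h at 30 °C 1 and 6, and without replicates 1 or 4 of 0 h at 22 °C 3 and 21 or 4 and 12. Without replicates 1 or 3 of 12 h at 22 °C 3 and 15 or 3 and 14 passed, without replicate 3 of 0 h at 22 °C 11 and 19, and without replicate 5 of 12 h at 22 °C 32 and 89. Of the genes that changed most at 30 °C, Tcea3 fell further there, with means of 44.1 ± 10.1 at 0 h and 0.286 ± 0.572 at 12 h at 30 °C and of 25.6 ± 10.5 and 6.23 ± 4.38 at 22 °C (difference of changes -3.23 ± 0.55, adjusted p = 0.0095). Hadh went from 945 ± 184 to 129.7 ± 26.7 at 30 °C and from 707 ± 181 to 267 ± 81.3 at 22 °C (difference of changes -1.44 ± 0.30, adjusted p = 0.021). Cyp2c37, Cyp2c68 and Ddah1, which degrades methylated arginines, had differences of changes of -1.88 ± 0.39, -1.34 ± 0.28 and -1.90 ± 0.41.

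Other genes had higher means at 12 h than at 0 h at 22 °C and were not called at 30 °C. Ifit2 had means of 4.60 ± 2.82 and 4.56 ± 3.53 at 30 °C against 2.13 ± 1.35 and 31.8 ± 19.3 at 22 °C (difference of changes -3.32 ± 0.65, adjusted p = 0.021). Icam1 had means of 25.0 ± 21.2 and 20.6 ± 2.64 at 30 °C against 8.18 ± 4.19 and 54.1 ± 16.1 at 22 °C (difference -2.64 ± 0.59, adjusted p = 0.036). Pnrc1, Rmnd5a, Zfand5, Cited2 and Rnd1 had differences of -1.68 ± 0.32, -1.86 ± 0.38, -1.76 ± 0.36, -2.54 ± 0.53 and -2.31 ± 0.48. Sox9 and Thrsp, a gene of fatty acid synthesis, fell at 30 °C while their means rose at 22 °C, from 37.2 ± 11.0 to 108 ± 65.8 and from 197 ± 118 to 354 ± 156, with differences of changes of -2.71 ± 0.56 and -2.65 ± 0.55. Gadd45g had a mean of 32.3 ± 25.9 at 0 h at 30 °C and of 7.17 ± 2.76 at 22 °C, and of 114 ± 14.8 and 138 ± 41.6 at 12 h, so that the temperatures were further apart before LPS than after (difference of changes -2.02 ± 0.45). The mitochondrial transcript mt-Nd1 had means of 13825 ± 1094 at 0 h and 7909 ± 1374 at 12 h at 30 °C and of 10754 ± 982 and 11527 ± 2766 at 22 °C (difference of changes -0.89 ± 0.20, adjusted p = 0.038). In the other direction, Hacl1, an enzyme of peroxisomal alpha-oxidation, had means of 205 ± 50.3 and 281 ± 37.0 at 30 °C and of 264 ± 29.7 and 116 ± 21.4 at 22 °C (difference 1.67 ± 0.29, adjusted p = 0.0095). Slc25a15, the ornithine carrier of the urea cycle, rose at 30 °C by 1.08 ± 0.22 and had a difference of changes of 1.46 ± 0.31 (adjusted p = 0.026).

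**Figure D5:**
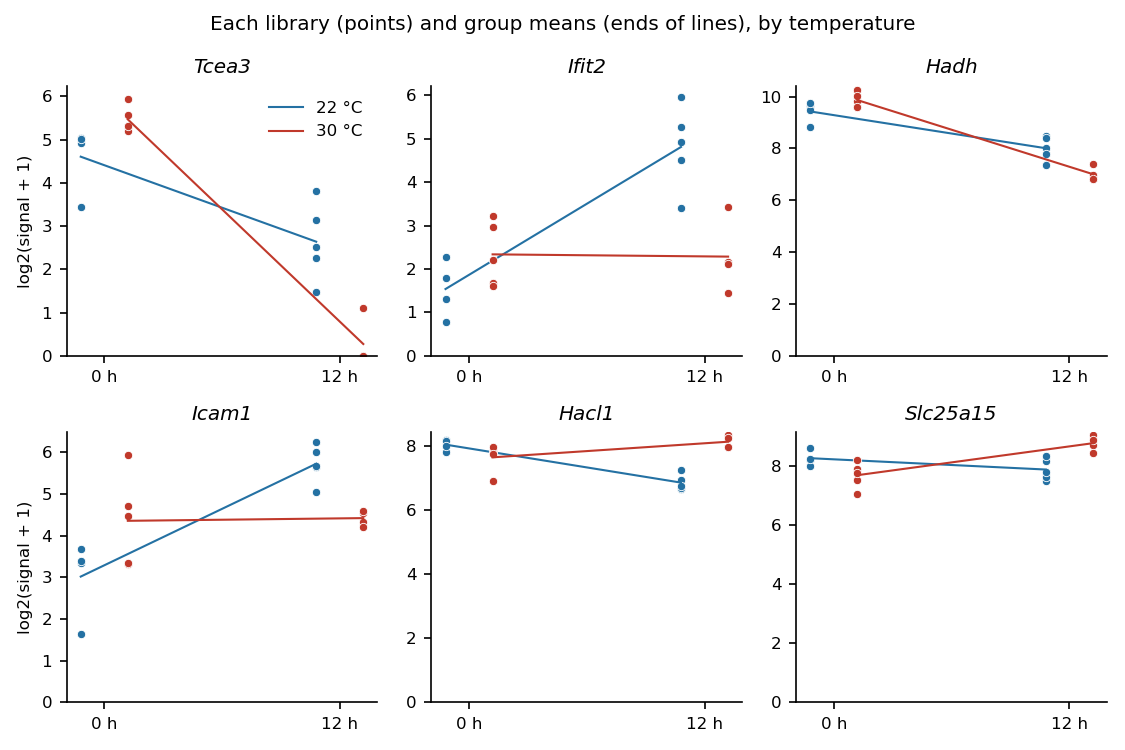
Log2(signal + 1) of 6 genes at 0 and 12 h after LPS at 22 °C (blue, 4 and 5 libraries) and 30 °C (red, 5 and 4 libraries), with 1 point per library and lines between group means. Tcea3 and Hadh fall more steeply at 30 °C, Ifit2 and Icam1 rise at 22 °C alone in these means, and Hacl1 and Slc25a15 are lower at 12 h than at 0 h at 22 °C and higher at 30 °C.

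For the lists described above the interaction gave few calls. The acute phase, interferon gamma, bile acid, conjugating enzyme and Kupffer cell lists had 30, 24, 23, 42 and 16 tested members. None had a member past the limma threshold. At an unadjusted p under 0.05 they had 2, 0, 1, 3 and 0 members upwards and 5, 3, 1, 18 and 1 downwards. Among all 8702 genes there were 1041 in both directions together. Of these lists the conjugating enzyme list, with 18 of 42 downwards, stood furthest above that share. Of those that had calls, the type I interferon list had 1 (Ifit2), the NF-kB list 1 (Icam1), the mitochondrial genome list 1 (mt-Nd1) and the P450 list 2 (Cyp2c37 and Cyp2c68). The growth arrest, fatty acid oxidation, lipogenesis, glucocorticoid and cholangiocyte lists had 1 each downwards, and the urea cycle and amino acid list 1 upwards. Values at 22 °C stood beside those at 30 °C for the leading genes. Saa1 had means of 251 ± 39.0 at 0 h and 18955 ± 2864 at 12 h at 22 °C against 334 ± 148 and 21837 ± 1119.5 at 30 °C (difference of changes -0.09 ± 0.29, adjusted p = 0.95). Abcb11 had 2591 ± 188 and 298 ± 92.3 at 22 °C against 2539 ± 120.0 and 109 ± 42.3 at 30 °C (difference -1.43 ± 0.43, adjusted p = 0.13). Nr0b2 had 26.8 ± 8.04 and 0.949 ± 0.951 at 22 °C, where 30 °C had 35.5 ± 11.3 at 0 h and 0 at 12 h.

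Of the genes described, 15 calls of the change from 0 h to 12 h at 30 °C ended when 1 library was left out, and their values are given here. Bcl3, an NF-kB cofactor, had a log2 difference of 1.36 ± 0.46 (adjusted p = 0.017) and an adjusted p of 0.059 without replicate 2 of 12 h. Hmox1, heme oxygenase 1, had 1.15 ± 0.35 (adjusted p = 0.009) and 0.051 without the same library. Ddit3, which encodes the stress factor CHOP, had 1.39 ± 0.42 (adjusted p = 0.0092) and 0.0502 without replicate 3 of 0 h. H2-Aa, a class II chain, had -0.75 ± 0.25 (adjusted p = 0.016) and 0.081 without replicate 1 of 12 h. Por, the reductase that feeds electrons to P450 enzymes, had 0.68 ± 0.23 (adjusted p = 0.016) and 0.085 without the same library. Sds, serine dehydratase, had 1.26 ± 0.42 (adjusted p = 0.017), and 0.070 and 0.094 without replicate 5 of 0 h and replicate 1 of 12 h. Tfrc, the transferrin receptor, had 1.19 ± 0.41 (adjusted p = 0.02), and 0.059 and 0.072 without replicate 1 of 0 h and replicate 3 of 12 h. Pcna kept its call, but its log2 difference of 1.12 ± 0.34 was 0.64 without replicate 3 of 0 h.

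The remaining 8 rested on several libraries. Spp1, osteopontin, had a log2 difference of -1.02 ± 0.35 (adjusted p = 0.019) and lost the call without replicate 3 of 0 h or replicates 1 or 3 of 12 h (adjusted p up to 0.13). Tdo2, which opens the tryptophan ring, had 0.63 ± 0.21 (adjusted p = 0.019) and lost it without replicate 3 of 0 h or replicates 1, 2 or 3 of 12 h (up to 0.078). Elovl2, an elongase of polyunsaturated fatty acids, had -0.69 ± 0.24 (adjusted p = 0.025) and lost it without replicate 3 of 0 h or replicates 1, 3 or 4 of 12 h (up to 0.091). Slc1a2, a glutamate transporter of pericentral hepatocytes, had -0.92 ± 0.34 (adjusted p = 0.032) and lost it without replicates 1, 2 or 5 of 0 h or 1 or 2 of 12 h (up to 0.0999). Gpx1, glutathione peroxidase, had -0.48 ± 0.18 (adjusted p = 0.036) and lost it without replicates 1, 2 or 5 of 0 h or 1, 3 or 4 of 12 h (up to 0.11). F11, coagulation factor XI, had 1.17 ± 0.45 (adjusted p = 0.039) and lost it without replicates 1, 2 or 5 of 0 h or 1, 2 or 4 of 12 h (up to 0.17). Abcg8, the partner of Abcg5, had -0.80 ± 0.32 (adjusted p = 0.045) and lost it without replicates 1 to 4 of 0 h or 2 or 3 of 12 h (up to 0.23). Pf4, platelet factor 4, had 1.43 ± 0.57 (adjusted p = 0.046) and lost it without replicates 1, 2 or 5 of 0 h or any library of 12 h (up to 0.18).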

How the data were processed

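Mouse liver RNA was read in 36 libraries with CEL-Seq2 modified for bulk RNA, a method that tags the 3' ends of transcripts, per the labels' protocols. The submitters' processing notes name Trimmomatic, kallisto and sleuth, without versions or order. The authors deposited 1 signal per gene and library, scaled reads per base of effective length. The scaling between libraries, the treatment of molecular identifiers and the genome build are each not given in the sources used here. A second deposited column named tpm was used as an alternative signal. The sums of that column differ between libraries, so it is not plain TPM. Since counts could not be had, no count model was used.

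Of 34829 genes in the table, 22490 had a signal above 0 and 8702 a mean of at least 5 over the 36 libraries. These were tested on log2(signal + 1) with limma 3.58.1 in R 4.3.3 (lmFit, and eBayes with a trend of the spread with the mean), with a mean for each of the groups of temperature and time, so that all 36 libraries share 1 estimate of the spread. Adjustment was by Benjamini-Hochberg over all tested genes. Tables and plots were made with Python 3.11.15, numpy 2.4.6, pandas 2.3.3 and matplotlib 3.10.9. The fit was tested on simulated data. A promoter is the RefSeq window on GRCm38.p6. Of the tested genes, 102 have values identical to another gene's.

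Named genes are the 12 genes that rose most and the 12 that fell most (official symbol, higher group averaging 20 or more, ranges apart), the core members and the 3 called members of smallest p of each list, and the 8 of smallest p in each other contrast. Cited2, Rnd1, Ddah1 and Slc25a15 were named after their values were seen, and a few genes chosen by this rule are left out. The members and lists were chosen with earlier results of these data known. The labels give no batch. Library numbers were taken from the titles. Alternatives changed the value added before the log, the filter, the deposited column, the scaling, the weights, the libraries in the fit and the replicate block, and left out each library in turn.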

Additional observations from a re-analysis of the deposited data

Results flagged for a closer look

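In single groups of libraries at 30 °C, the highest or lowest library of a gene stood apart from the rest when its gap to the nearest library took up a share of the range of the group above Dixon's 95% critical value. Of 704 groups examined, 2 for each of 352 genes described, 63 held such a library. The shares were taken on the signal before the log. For normally distributed values chance flags about 1 in 20 groups, a rate that need not hold for such signal. A share of 1 means that the other libraries of the group had equal values. Replicate 3 of 0 h, the shallowest library, was the highest for 13 genes and the lowest for 8. Replicate 1 of 0 h was the highest library for Hsd11b1 (0.796), Irf1 (0.826), Per1 (1) and Rpl36 (0.818), with the share of the range in brackets. Replicate 2 of 0 h was the highest library for Hba-a1 (0.735), Tat (0.728) and Tfrc (0.738). Replicate 3 of 0 h was the highest library for Cat (0.853), Col1a2 (0.711), Cxcl9 (0.742), Hif1a (0.773), Ifit1 (0.814), Lyve1 (0.79), Lyz2 (0.843), Nfkbiz (0.865), Plaur (1), Rsad2 (0.813), Spp1 (0.821), Tlr2 (0.769) and Vcam1 (0.814). It was the lowest library for Cox5a (0.719), Cyp2f2 (0.738), Cyp3a11 (0.712), Cyp7b1 (0.743), S100a9 (0.716), Serpinc1 (0.817), Slc10a1 (0.795) and Tdo2 (0.846). Replicate 4 of 0 h was the highest library for Fgf21 (0.712) and Usp18 (0.746). Replicate 5 of 0 h was the highest library for Atf3 (1), Bcl3 (0.844), Btg2 (0.773) and Cyp26a1 (0.766). It was the lowest library for Abcg8 (0.809). Replicate 1 of 12 h was the highest library for Irf1 (0.892), Keg1 (1) and Psmd1 (0.867). It was the lowest library for Rbm3 (0.879). Replicate 2 of 12 h was the highest library for Hmox1 (0.862), Hsp90aa1 (0.861) and Pf4 (0.902). It was the lowest library for Cyp3a11 (0.873), Gbp2 (0.989), Hpx (0.857) and Hsd17b13 (0.891). Replicate 3 of 12 h was the highest library for Cyp2c68 (0.871), H2-D1 (0.842), Il1b (0.865), Ncl (0.851), Rgn (0.839), Serpina6 (0.908) and Tcea3 (1). It was the lowest library for Mrc1 (0.927). Replicate 4 of 12 h was the highest library for Adra1b (0.926), Cxcl10 (0.928), Cyp26a1 (1), Etnppl (0.834) and Fbl (0.886). It was the lowest library for Colec11 (0.841), Gde1 (0.902), Mup16 (0.834) and Tdo2 (0.865).

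The change to 12 h differed between 30 °C and 22 °C, by a limma test of the difference itself, for 18 genes described. The log2 difference of changes, 30 °C minus 22 °C, was positive for Hacl1 (1.67) and Slc25a15 (1.46). It was negative for Cited2 (-2.54), Cyp2c37 (-1.88), Cyp2c68 (-1.34), Ddah1 (-1.90), Gadd45g (-2.02), Hadh (-1.44), Icam1 (-2.64) and Ifit2 (-3.32). It was also negative for mt-Nd1 (-0.89), Pnrc1 (-1.68), Rmnd5a (-1.86), Rnd1 (-2.31), Sox9 (-2.71), Tcea3 (-3.23), Thrsp (-2.65) and Zfand5 (-1.76). Each call was repeated in 18 fits that left out 1 library. It was lost in 13 of them for mt-Nd1, 11 for Icam1, 10 for Gadd45g and 7 each for Ddah1 and Slc25a15. Cyp2c68, Hadh, Thrsp, Sox9, Cited2 and Rnd1 lost it in 5 each and Rmnd5a in 4. Cyp2c37 and Zfand5 lost it in 3 each, Pnrc1 and Ifit2 in 2 each, and Tcea3 and Hacl1 in none.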

How the results depend on the processing

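The 1680 higher and 1649 lower genes of 12 h against 0 h at 30 °C stayed within 1.5 times of these counts under all settings tried, and ranged from 1483 to 1618 and from 1469 to 1580 when 1 library was left out. Against 4 h, leaving out 1 library gave 867 to 1052 higher and 1383 to 1481 lower genes. A mean of at least 20 left 643 higher genes, with fewer genes tested, and upper quartile rescaling gave 1723. From 12 h to 24 h, leaving out 1 library gave 798 to 983 higher and 610 to 782 lower genes. The difference between temperatures depended most on the settings. In place of 6 genes upwards and 18 downwards it gave 2 and 1 without a filter, 11 and 42 at a mean of at least 20, 21 and 54 with array weights, 9 and 27 with 5 added before the log, and 1 to 32 and 1 to 89 when 1 library was left out. The causes were not tested. Same-numbered libraries of 0 h and 12 h at 30 °C deviated from their group means with correlations of 0.018, -0.064, -0.047 and 0.062. These few values cannot tell whether such libraries share more than a number. With the replicate number of the titles as a block the difference between temperatures gave 22 and 54 genes. The block moved no other count by over 1.5 times, and gave 1649 higher and 1608 lower genes for 12 h against 0 h. Replicate 4 of 4 h at 30 °C, which had the most genes above 0, was also left out of the shared spread, an alternative chosen after seeing the data, and 12 h against 0 h then gave 1704 higher and 1713 lower genes and the difference between temperatures 6 and 18. Of 329 called gene results described, 295 stayed past the threshold under every setting run, and none changed sign. At roughly estimated depths of 557000 to 1100000 reads per library, differences below the level of 3 reads were not detectable.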
